A study of Homo sapiens with 13 samples.

Results

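The first hours after Src activation were examined in MCF10A-Src cells by comparing RNA at 4 h of tamoxifen with RNA at 0 h. Genes were taken from the time-course table wherever a row had 1 or more FPKM (fragments per kilobase of transcript per 1000000 fragments) in any of the 3 libraries of this comparison. That rule kept 14770 of 38369 rows. Of these, 14737 could be fitted, and 33 lacked a valid estimate in some library. The fitted rows comprised 10541 coding genes, 3500 assembled long intergenic RNAs (lincRNAs), 471 rows that carried several symbols and 225 with no symbol.

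MCF10A is a human breast epithelial line that is immortal but does not form tumours, although its cell type label reads breast cancer. The MCF10A-Src derivative carries an inducible Src kinase that tamoxifen switches on. Both groups were MCF10A-Src cells in a medium with horse serum, hydrocortisone, cholera toxin, insulin and epidermal growth factor (EGF), and by their labels they differed in tamoxifen exposure: none at 0 h, and 4 h of it in the other group. The 0 h group had 1 library and the 4 h group 2, together 3 of the 13 samples of the study. No vehicle-treated library at 4 h was used here, so time in culture, tamoxifen itself and Src activity cannot be told apart. The labels do not say that the 4 h libraries came from separate cultures, so the p-values measure the spread between libraries, which may be technical.

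Src is a tyrosine kinase that sits under the cell membrane and passes signals from growth factor receptors and integrins to the cytoskeleton and the nucleus. In the cell system used here, as it is known from the literature, the kinase is joined to the hormone-binding part of the estrogen receptor, so that tamoxifen activates a protein that is already present. Its best known consequences in these cells run through NF-kB and interleukin 6 to the transcription factor STAT3. Genes that answer within hours include cytokines, their feedback inhibitors and immediate early transcription factors.

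The libraries held 52335486 fragments at 0 h and 18480150 and 23346536 at 4 h. At an equal level a gene thus has its smallest counting error at 0 h, where there is no replicate. Genes with few fragments at 0 h, such as IL24 with 23, have their largest relative counting error there. The spread was estimated from the pairs at 4 h and 36 h of the same time course, with a common coefficient of variation of 0.162. The 4 h libraries differed from each other far beyond counting noise (median chi-square 14.67 times its value under counting error, 14221 rows), and 192 of 12794 rows with 1 or more FPKM in both differed at least 2-fold. All 14 basal breast epithelial markers, such as KRT5, KRT14 and TP63, passed 1 FPKM. So did 7 of 12 luminal markers listed, such as KRT8 and KRT18. Immune and blood markers summed to 10.3 FPKM at 0 h and to 15.1 and 13.5 FPKM at 4 h, with 2 of the 11 in the table above 1 FPKM (CD14 and CD68) and CD3E, CD3D, CD163 and HBB at 0. Fibroblast and endothelial markers summed to 25.4, 30.2 and 34.5 FPKM, with DCN and FAP above 1 FPKM and COL1A2 and CDH5 at 0. CDKN2A and CDKN2B, which this line is known to have lost, were at 0 in the 3 libraries.

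The level of the introduced kinase itself was not analysed here. The human SRC row stood at 19.2 CPM (fragments per 1000000, scaled between libraries and not by transcript length) at 0 h and at 29 and 19.9 CPM at 4 h, a log2 change of 0.34 ± 0.286 (SE) that did not pass the test. The ESR1 row was at 806 CPM at 0 h and at 678 and 290.4 CPM at 4 h, a log2 change of -0.74 ± 0.403 (adjusted p = 0.308) that was -1.47 and past the threshold without library 1 and -0.25 without library 2. PGR, a classic target of the estrogen receptor, had 5 fragments at 0 h and 0 in both 4 h libraries, and TFF1 had 0 in all 3. Whether fragments of the introduced construct enter the SRC or ESR1 row was not tested. The row linc-TBPL2-2, taken here for LINC00520, a pairing the table does not state, had 91, 30 and 22 fragments, below 1 FPKM at 0 h and 4 h, and so was not among the genes described.

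Of the 14737 genes fitted, 923 (6.26%) passed edgeR's quasi-likelihood test at an adjusted p under 0.05. At 4 h, 465 were higher (3.16% of those fitted) and 458 were lower (3.11%). For all 923, both 4 h libraries lay on the same side of the 0 h library in scaled counts. The rises reached further than the falls: 117 genes were up at least 4-fold against 67 that were down, and 46 were up at least 8-fold against 10. The median log2 change was 0.02 over all fitted genes, 1.37 over the higher ones and -1.32 over the lower ones. Of the higher genes, 99 were among the 728 that entered through the 4 h libraries alone, and 132 of the lower genes were among the 719 that entered through the 0 h library alone. The smallest log2 change that passed was 0.75. A gene that reached 1 FPKM at 4 h alone had to have a higher FPKM in a 4 h library than at 0 h. The called direction comes from scaled counts and could differ from it. A list count that holds such genes is still partly set by the rule. Their number stands beside most lists in which several did. It was also 3 of 7 serpin B and kallikrein genes and 3 of 8 colony-stimulating and TNF ligands. For matrix metalloproteinases and TIMPs it was 2 of 8, for ERK feedback genes 2 of 24 and for NRF2 genes 2 of 20. The called genes CCL2, MMP3, BATF3, SERPINB13, DLL1, WNT9A, HMOX1 and PTGS2 passed in this way too. So did FAIM3, HS3ST1, CD180, OLR1 and TRIM40, among others. Likewise, a gene that reached 1 FPKM at 0 h alone had to have a lower FPKM in both 4 h libraries, and such genes were not counted for each list. A one-sided rank comparison of 2 libraries with 1 could not go below an exact p of 0.333. All calls therefore rest on the spread shared across genes and time points.

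**Figure D1:**
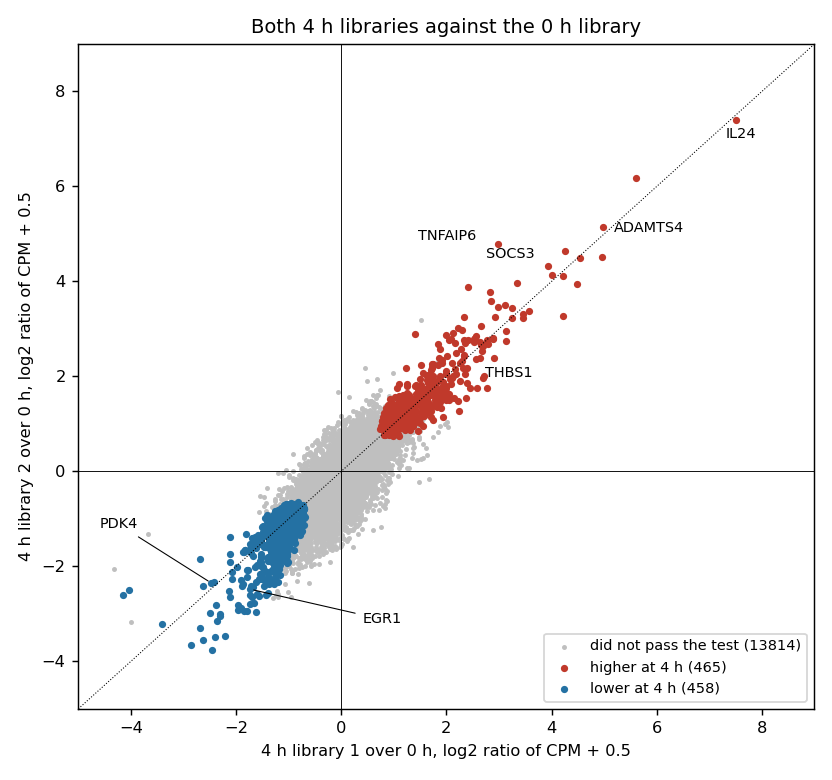
Log2 ratio of each 4 h library (library 1 on the x axis, library 2 on the y axis) to the 0 h library, on CPM with 0.5 added; each dot is 1 of the 14737 fitted genes, coloured where it passed the test. The 465 higher and 458 lower genes lie in the upper right and lower left, and IL24 stands at the far end, while TNFAIP6 lies off the diagonal because library 2 exceeded library 1.

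IL24, a cytokine of the IL-10 family, gave the strongest fitted rise once genes with 3 or fewer fragments in a group were set aside. Its level was 0.403 CPM at 0 h (23 fragments) and 165 and 152 CPM at 4 h (3186 and 3593 fragments), a log2 change of 8.61 ± 0.3 with an adjusted p of 4.23e-05. Its neighbour on chromosome 1, IL20 (207038699 to 207042567, hg19), rose from 0.0876 CPM to 2.18 and 2.8 CPM. FAIM3, the gene of an Fc receptor for IgM, rose from 1.35 to 34.8 and 45.5 CPM, but its row has the same deposited locus as IL24 (chromosome 1, 207070789 to 207098622, hg19). Such a locus can span several genes, and whether the 2 rows share fragments was not tested. Of the 9 listed members of the IL-10 and IL-20 family, 3 passed 1 FPKM and 2 of those rose, both of which passed through 4 h alone.

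The IL-6 family also moved at its ligands. IL6 itself stood at 0.49 CPM at 0 h and at 6.69 and 11.3 CPM at 4 h (28, 129 and 266 fragments), a log2 rise of 4.19 ± 0.643 that DESeq2's Wald test did not call. LIF, which signals through the same receptor chain, was at 6.38 CPM and then 51.4 and 64 CPM, a log2 rise of 3.18 ± 0.266. CLCF1, another ligand of this family, went from 1.68 to 7.57 and 6.49 CPM. All 3 ligands were higher in both 4 h libraries, while the shared receptor chain IL6ST (0.67 ± 0.246), the IL-6 receptor IL6R (-0.73 ± 0.249) and OSMR (0.62 ± 0.24) did not pass the test. In all, 3 of 8 measured members were called higher, 0 lower, and 2 of the 3, IL6 and CLCF1, passed 1 FPKM through 4 h alone.

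Downstream of these ligands, SOCS3, the inhibitor that STAT3 induces to shut off its own receptor, was at 14.3 CPM at 0 h and at 222 and 294 CPM at 4 h. Its log2 rise of 4.17 ± 0.273 (18.0-fold, adjusted p = 0.000632) made it the only called member of 7 SOCS genes. Of 21 measured IL-6 and STAT3 target genes, 9 were higher and 0 lower, with a list median of 0.87 against 0.02 over all genes, and 3 of the 21 passed 1 FPKM through 4 h alone. The acute phase gene SAA2 rose from 6.78 to 85 and 74.5 CPM, and SAA1 from 69.3 to 137 and 142 CPM. SERPINA1, a secreted protease inhibitor, rose from 53.1 to 215 and 155 CPM, and STEAP4, a metal reductase, from 1.75 to 7.06 and 10.2 CPM. BCL3, a nuclear partner of NF-kB subunits, differed between the 4 h libraries (24.7 and 12 CPM), both above 3.24 CPM at 0 h. STAT3 itself was at 270.3 CPM at 0 h and at 470.5 and 457 CPM at 4 h, a log2 change of 0.78 ± 0.195 that missed the threshold (adjusted p = 0.0557). None of 10 JAK kinases and STAT factors passed.

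The IL-1 family rose on the ligand and on the receptor side, with 6 of 8 measured members higher and a median of 1.31, and with 2 of the 8 passing 1 FPKM through 4 h alone. IL1B went from 28.1 to 93 and 89.9 CPM, a log2 rise of 1.70 ± 0.2. IL1F9, now called IL36G, went from 0.0701 CPM (4 fragments) to 1.14 and 2.21 CPM. Among receptors, IL1R1 rose from 11.5 to 30.8 and 24.8 CPM and its co-receptor IL1RAP from 82.8 to 204 and 208 CPM. The decoy receptor IL1R2 and the receptor antagonist IL1RN, both of which oppose IL-1, rose as well, by 1.31 ± 0.279 and 1.62 ± 0.381. IL1A (0.71 ± 0.18) and IL18 (0.44 ± 0.239) did not pass.

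Chemokines, the attractants of leukocytes, were higher at 4 h in 5 of 7 measured CXC genes, and 3 of the 7 passed 1 FPKM through 4 h alone. With scaling by library total alone, 3 of those calls were left. CXCL10, which draws T cells, had 7 fragments at 0 h and 35 and 76 at 4 h (0.123, 1.82 and 3.22 CPM). The neutrophil attractants CXCL1, CXCL2 and CXCL3 rose together: CXCL1 from 11.5 to 25.9 and 33.4 CPM, CXCL2 from 5.87 to 12.5 and 14.5 CPM, and CXCL3 from 0.613 to 1.97 and 2.84 CPM. Reads that fit more than 1 of these near copies could be split between them, so the single values are uncertain. IL8, the best known neutrophil attractant, showed 26 CPM at 0 h and an uneven 51.3 and 109 CPM at 4 h, and its log2 change of 1.62 ± 0.411 did not pass (adjusted p = 0.0584). Among CC chemokines, CCL20 rose from 6.03 to 20.9 and 30.3 CPM. CCL2 had 1 fragment at 0 h and 179 and 200 at 4 h, a ratio of 505 with an exact 95% counting interval of 90.1 to 20000.

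Of 26 NF-kB subunits, inhibitors and targets, 9 were higher and 0 lower, and 24 had a log2 change above 0 (median 0.79). The subunit genes NFKB2 (38.1 CPM, then 94.7 and 106), RELB (5.78, then 18.4 and 17.7) and NFKB1 (89.6, then 149 and 170.2) all rose. TNFAIP3, which encodes the A20 inhibitor of the pathway, rose from 15.1 to 57.5 and 52.2 CPM, a log2 change of 1.86 ± 0.211. SOD2, the mitochondrial superoxide dismutase, was already at 341 CPM and rose to 1116 and 1515 CPM. ICAM1, the adhesion ligand of leukocyte integrins, went from 26.2 to 81.8 and 84.2 CPM. The inhibitor NFKBIA was at 112 CPM and then at 131 and 186 CPM, a log2 change of 0.50 ± 0.237 that did not pass.

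The bases before the start of these genes were read from the RefSeq promoter table (GRCh38.p14), and motif letters were searched on both strands in the 250 bases before each start. The NF-kB motif was found in 12.5% of the 280 higher coding genes matched to the table, in 5.85% of the 188 lower ones, in 5.91% of all 8616 matched coding genes and in 5.05% of all 27305 promoters. The 6 stretches of 100 bases that end at the start site are shown because these genes rose together and share the motif, which is in capitals.
CXCL1 (chr4:73869293-73869392, plus strand): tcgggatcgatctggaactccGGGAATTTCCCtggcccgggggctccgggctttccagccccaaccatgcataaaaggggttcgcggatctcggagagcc
CXCL2 (chr4:74099196-74099295, minus strand): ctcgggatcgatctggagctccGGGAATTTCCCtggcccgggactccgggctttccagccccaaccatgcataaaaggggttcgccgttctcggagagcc
CXCL3 (chr4:74038690-74038789, minus strand): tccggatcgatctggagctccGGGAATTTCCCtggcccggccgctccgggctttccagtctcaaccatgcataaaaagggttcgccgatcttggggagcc
CCL20 (chr2:227813742-227813841, plus strand): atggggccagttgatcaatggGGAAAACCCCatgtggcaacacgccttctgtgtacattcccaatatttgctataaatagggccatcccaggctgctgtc
TNFAIP3 (chr6:137867159-137867258, plus strand): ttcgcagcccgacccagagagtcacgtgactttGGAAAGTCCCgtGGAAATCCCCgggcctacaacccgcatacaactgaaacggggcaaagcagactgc
IL6 (chr7:22727100-22727199, plus strand): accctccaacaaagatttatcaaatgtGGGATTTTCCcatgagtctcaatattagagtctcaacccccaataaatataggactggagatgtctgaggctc

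In CXCL1 and CXCL3 the motif's first base lies 79 bases before the start, in CXCL2 78, and the letters around it are nearly alike, as these genes are paralogs. In CCL20 it also begins 79 bases before the start, in IL6 73, and TNFAIP3 holds 2 copies that begin 67 and 55 bases before it. A match describes the letters and was not tested as a binding site. The STAT motif (TTCNNNGAA) was found in 7.86% of higher genes, 5.32% of lower genes, 5.57% of all matched coding genes and 6.78% of all promoters. The promoters of 3 called genes that do hold it, the interferon response factor IRF1, ICAM1 and STEAP4, are given over 140 bases, with the STAT motif and, in IRF1, also the NF-kB motif in capitals.
IRF1 (chr5:132490774-132490913, minus strand): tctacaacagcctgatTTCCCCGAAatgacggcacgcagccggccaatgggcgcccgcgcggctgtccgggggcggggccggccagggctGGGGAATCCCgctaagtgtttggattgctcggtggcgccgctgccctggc
ICAM1 (chr19:10270980-10271119, plus strand): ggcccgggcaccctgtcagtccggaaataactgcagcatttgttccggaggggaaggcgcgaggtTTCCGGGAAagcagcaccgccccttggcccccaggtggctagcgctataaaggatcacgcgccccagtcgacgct
STEAP4 (chr7:88306895-88307034, minus strand): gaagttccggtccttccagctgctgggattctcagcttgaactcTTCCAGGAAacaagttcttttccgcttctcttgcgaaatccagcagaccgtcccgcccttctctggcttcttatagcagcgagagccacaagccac

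IRF1 rose from 8.13 to 24.2 and 19.4 CPM, a log2 change of 1.42 ± 0.265. Of 27 interferon-stimulated genes, 4 were higher and 0 lower, and GBP1, a GTPase of the interferon response, led them with 14.2 CPM at 0 h and 85.9 and 103 CPM at 4 h. OASL and IFIT5 rose by 1.32 ± 0.312 and 1.10 ± 0.26. The other 23, among them ISG15 (1.08 ± 0.432), did not pass, and 2 calls were left with scaling by library total.

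**Figure D2:**
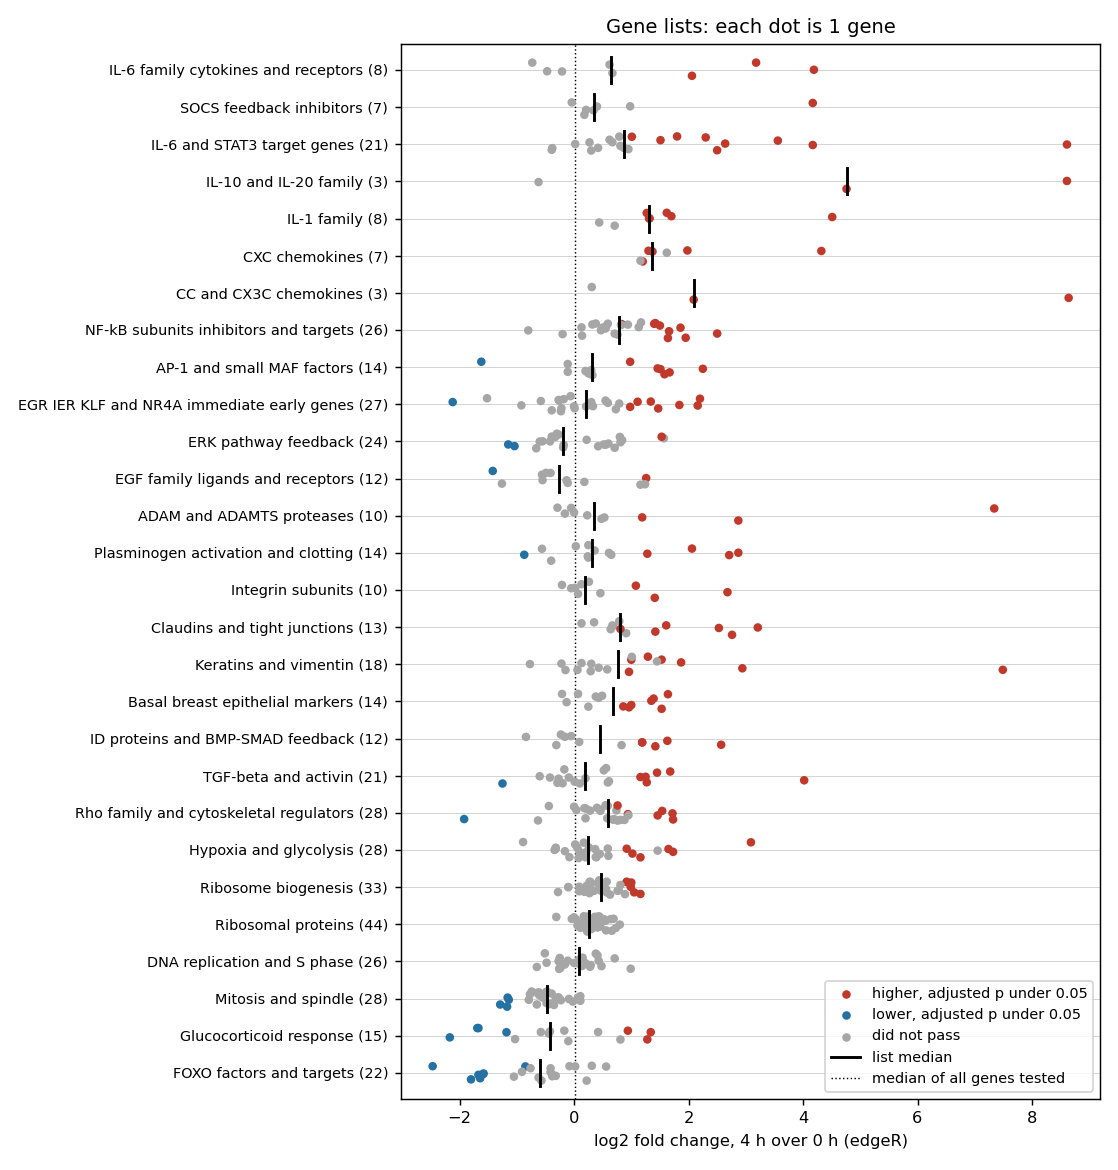
Log2 change from 0 h to 4 h of every measured member of 28 gene lists, 1 dot per gene, red or blue where the gene passed the test, with the list median as a bar and the median of all genes (0.02) as a dotted line. Cytokine, chemokine and keratin lists reach far to the right, ribosomal protein and S phase genes stay near the dotted line with no call, and the FOXO, glucocorticoid and mitosis lists lie to its left.

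Immediate early genes, which cells switch on within minutes of a growth signal and switch off again, had moved apart by 4 h. EGR1 was lower, at 61.6 CPM at 0 h and 18 and 10.4 CPM at 4 h, a log2 fall of -2.12 ± 0.297, and FOSB was lower too, at 34.8 CPM and then 10.4 and 12.2 CPM. FOS (141 CPM, then 140.2 and 121) and JUN (84.7 CPM, then 84.7 and 115) did not pass. In contrast, 6 of 14 AP-1 and small MAF factors rose, among them FOSL1 from 15.1 to 51.4 and 39.1 CPM, JUNB from 54.5 to 148 and 164 CPM, FOSL2 from 88.7 to 184 and 167 CPM, and likewise MAFK and BATF3. Of 27 EGR, IER, KLF and NR4A genes, 7 rose and 1 fell. SRF, the factor that drives many of these genes through the CArG box, rose from 26.9 to 75.4 and 74.1 CPM. GADD45B, a stress-induced regulator of kinases, rose from 10.8 to 50.5 and 45.7 CPM, and PLK2, a polo-like kinase, from 35.6 to 114 and 140.2 CPM.

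The CArG box was found in 3.21% of higher genes, 2.13% of lower genes, 1.09% of all matched coding genes and 1.14% of all promoters. SRF and EGR1 are shown over 110 bases because both hold 2 such boxes (capitals) yet changed in opposite directions.
SRF (chr6:43171159-43171268, plus strand): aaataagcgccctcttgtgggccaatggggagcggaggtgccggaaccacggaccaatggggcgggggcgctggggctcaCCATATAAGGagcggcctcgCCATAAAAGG
EGR1 (chr5:138465369-138465478, plus strand): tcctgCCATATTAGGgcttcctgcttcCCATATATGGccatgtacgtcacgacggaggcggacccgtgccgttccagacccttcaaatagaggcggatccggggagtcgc

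Among the other motifs searched, the AP-1 motif (TGANTCA) stood in 6.43% of higher, 3.19% of lower and 3.71% of all matched coding genes, and in 6.6% of all promoters. The FOXO motif (GTAAACA) stood in 2.14%, 5.32% and 1.94% of the same groups, and in 2.98% of all promoters. The CRE motif (TGACGTCA) was found in 1.79%, 2.66% and 3.06%, and in 1.77% of all promoters, and the E-box (CACGTG) in 7.86%, 9.04% and 9.08%, and in 6.49% of all. Motifs were counted separately, also where their letters overlap.

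Feedback genes of the ERK pathway gave calls in both directions. Of 24 measured genes, 1 was higher (4.17%) and 2 were lower (8.33%), with a median of -0.19. Over all coding rows the shares were 3.57% and 2.18%. The called rise was EPHA2, a receptor tyrosine kinase, from 99.9 to 309 and 268 CPM, and the falls were the phosphatase DUSP10 (9.58 CPM, then 4.1 and 4.5) and the ETS factor ETV1 (40.9 CPM, then 17.2 and 22.7). Of 12 EGF family ligands and receptors, TGFA rose from 52.9 to 123 and 129.8 CPM, and AREG, another ligand of the same receptor, fell from 27 to 11.1 and 9.17 CPM. EGFR was at 343 CPM and then 337 and 288 CPM (-0.13 ± 0.226). MYC was at 13.8 CPM and then 14.4 and 16.2 CPM, and none of 10 MYC and MAX network genes passed. Ephrin signalling had 3 of 10 members higher: the ligands EFNA1 (1.56 ± 0.228) and EFNB2 (1.02 ± 0.197), beside EPHA2.

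Secreted and membrane-bound proteases rose in several families. ADAMTS4, an aggrecan-cleaving metalloprotease, had 7 fragments at 0 h and 375 and 513 at 4 h (0.123, 19.5 and 21.8 CPM), a log2 rise of 7.34 ± 0.422. ADAMTS9 rose from 3.94 to 30.2 and 27.7 CPM and ADAM19 from 3.21 to 8.04 and 6.66 CPM, so that 3 of 10 measured ADAM and ADAMTS genes were called, all 3 of which passed 1 FPKM through 4 h alone. MMP3 had 3 fragments at 0 h and 70 and 79 at 4 h, a ratio of 66.2 with an exact 95% counting interval of 22.2 to 325, and was the called member of 8 matrix metalloproteinases and TIMPs. In the plasminogen and clotting group, 4 of 14 were higher and 1 lower. F3, the tissue factor that starts clotting, went from 14.4 to 109 and 102 CPM. PLAU, the urokinase, went from 22.8 to 91.3 and 98.2 CPM, and its receptor PLAUR from 13.5 to 79.9 and 96.1 CPM.

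Some matrix protein genes rose. THBS1, thrombospondin 1, was at 993 CPM at 0 h and reached 5831 and 5035 CPM at 4 h, a log2 rise of 2.45 ± 0.239. TNC, tenascin C, rose from 8.58 to 201 and 138 CPM, and the laminin chain LAMB3 from 563 to 1390.5 and 1559 CPM. These were the 3 called of 27 matricellular and matrix genes (11.1%, against 3.57% of coding rows), and FN1 (0.31 ± 0.211) was not among them. Of 10 integrin subunits, ITGB6, whose product activates latent TGF-beta, rose from 45.6 to 283 and 299 CPM, and ITGA2 and ITGB8 rose by 1.41 ± 0.207 and 1.08 ± 0.21. TNFAIP6, a hyaluronan-binding protein, had 16 fragments at 0 h, 109 in library 1 and 499 in library 2 at 4 h, and its log2 rise of 5.57 ± 0.899 was 4.31 without library 2 and 6.22 without library 1.

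Some epithelial junction genes rose. Of 13 measured claudin and tight junction genes, 6 rose, 0 fell and all 13 had a log2 change above 0 (median 0.81), and 3 of the 13 passed 1 FPKM through 4 h alone. CLDN1, a sealing claudin, went from 71.8 to 491 and 481 CPM, CLDN4 from 7.87 to 34.6 and 56.6 CPM, and OCLN from 39.3 to 92 and 119 CPM. Of 16 cadherin, catenin and desmosome genes, 2 were called. The E-cadherin gene CDH1 rose from 108 to 213 and 177 CPM, a log2 change of 0.86 ± 0.203 close to the threshold (adjusted p = 0.0494) that was lost with scaling by library total, and the P-cadherin gene CDH3 from 234 to 598 and 593 CPM. Of 24 factors that govern epithelial and mesenchymal state, 4 rose and 1 fell, and 4 of the 24, SNAI1, ELF3 and OVOL1 among them, passed 1 FPKM through 4 h alone. SNAI1, which represses CDH1, had 0.385 CPM at 0 h and 2.23 and 1.61 CPM at 4 h. The epithelial factors ELF3 (2.72 CPM, then 12.1 and 22.7) and OVOL1 (2.79 CPM, then 9.55 and 12.6) rose in the same cells, as did RUNX1, and the chromatin protein HMGA2 fell from 164 to 93.7 and 63.6 CPM, a call lost with scaling by library total. VIM, a mesenchymal marker, was at 286 CPM and then at 246 and 268 CPM (-0.15 ± 0.178).

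Keratins of basal and activated epidermis were among the calls, with 7 of 18 measured genes of the keratin and vimentin list higher and 0 lower, and 2 of the 18 passed 1 FPKM through 4 h alone. KRT6A rose from 923 to 2693 and 2624 CPM, KRT16 from 78 to 261 and 308 CPM and KRT17 from 1652 to 3222 and 3215 CPM. KRT6B, a near copy of KRT6A, rose from 7.55 to 49.7 and 65.9 CPM, and reads shared between such copies leave the split uncertain. KRT75, of hair follicles, had 2 fragments at 0 h and 185 and 111 at 4 h, a ratio of 197 with an exact 95% counting interval of 54.1 to 1636. KRT8, a luminal keratin, rose too, from 118 to 290.4 and 288 CPM. It was the 1 call among 7 measured luminal markers, of which 0 were lower. Of these 7, 3 had a log2 change above 0, and their median was -0.11. Of the 14 basal markers, 7 were higher and 0 lower, and their summed level went from 4844 FPKM to 8537 and 8792 FPKM. SFN, the 14-3-3 sigma gene, rose from 192 to 603 and 592 CPM. The transglutaminases TGM2 (6.62 CPM, then 61.2 and 46.5) and TGM1 (86.9 CPM, then 206 and 214) were the 2 called of 20 cornified envelope and S100 genes.

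Serpin B genes, which encode protease inhibitors, were called in single-symbol and in merged rows. SERPINB1 rose from 41.8 to 159 and 153 CPM and SERPINB13 from 2.14 to 10.1 and 7.72 CPM. The merged row SERPINB3,SERPINB4 (chromosome 18, 61304491 to 61329197, hg19) went from 6.57 to 163 and 156 CPM, a log2 rise of 4.60 ± 0.252. The row SERPINB10,SERPINB2 went from 12.1 to 126 and 194 CPM. Among all 471 merged rows, 3.61% were higher and 1.06% lower. Merged rows were left out of the list counts, and their fragments cannot be assigned to 1 of the genes.

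Among genes of the TGF-beta superfamily, FST, follistatin, which binds activin, rose from 0.753 to 11.5 and 13.1 CPM, and FSTL3, a relative, from 55.7 to 118 and 131 CPM. TGFB2 and TGFB3, the ligands, rose by 1.25 ± 0.242 and 1.45 ± 0.265, and the co-receptor TGFBR3 fell from 45.7 to 19.1 and 19.5 CPM. Of 21 members, 6 were higher, 1 was lower and 14 did not pass, and 2 of the 21 passed 1 FPKM through 4 h alone. The ID genes, which block helix-loop-helix factors, rose: ID1 from 45.9 to 111 and 134 CPM, ID2 from 0.543 to 3.16 and 3.31 CPM and ID3 from 13.8 to 38.3 and 47 CPM. With BMP2 and BAMBI, 5 of 12 genes of the BMP and ID list were higher and 0 lower, and 3 were higher with scaling by library total. Of the 12, 2 passed 1 FPKM through 4 h alone. DLL1, a Notch ligand (1.79 CPM, then 9.29 and 8.27), was the called member of 10 Notch genes, and WNT9A (0.771 CPM, then 6.17 and 5.22) that of 15 Wnt genes. These single calls are 10.0% and 6.67% of their lists, where 3.57% of all coding rows were higher.

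Regulators of the actin cytoskeleton tended to be higher, with 25 of 28 log2 changes above 0, 6 genes higher and 1 lower. Effectors of CDC42, a small GTPase that shapes the actin cytoskeleton, rose: CDC42EP1 from 17 to 59.5 and 53 CPM, CDC42EP2 from 10.1 to 36.8 and 30.5 CPM and CDC42EP4 from 42 to 122 and 122 CPM. RND3, a small GTPase, rose from 47.4 to 116 and 144 CPM, whereas the atypical small GTPase RHOU fell from 6.01 to 1.45 and 1.7 CPM. Of 19 YAP and TAZ targets, 4 were higher, among them AMOTL2 (143 CPM, then 332 and 331), and the classic targets CTGF (0.21 ± 0.314) and CYR61 (-0.26 ± 0.331) did not pass.

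Of 28 hypoxia and glycolysis genes, 6 were higher, and 2 of the 28 passed 1 FPKM through 4 h alone. ADM, the vasodilator adrenomedullin, rose from 0.876 to 6.54 and 8.44 CPM, VEGFA from 45.3 to 147 and 138 CPM, PFKFB3, a driver of glycolysis, from 35.6 to 131 and 105 CPM, and HIF1A, NDRG1 and BHLHE40 by 0.92 to 1.16 on the log2 scale. STC1, the secreted hormone stanniocalcin, rose from 0.193 to 7.21 and 6.45 CPM. HMOX1, heme oxygenase, was the called member of 20 NRF2 genes (2.16 ± 0.365), and PTGS2, the inducible cyclooxygenase, that of 9 prostaglandin genes (1.01 ± 0.238). These single calls are 5.0% and 11.1% of their lists, where 3.57% of all coding rows were higher. Ribosome biogenesis had 6 of 33 genes higher, with 30 of the 33 above 0 and a median of 0.47. RRP12 rose from 50.0 to 117 and 106 CPM and NIP7 from 35.2 to 66.4 and 73.3 CPM. With scaling by library total alone, 1 of those 6 calls was left. Ribosomal proteins themselves gave 0 calls of 44, with 42 above 0 and a median of 0.26.

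Calls in the downward direction came from other groups. Of 22 FOXO factors and targets, 7 were lower and 0 higher, with a median of -0.60. FOXO factors are held out of the nucleus when the kinase AKT is active. PDK4, which restrains the use of glucose in mitochondria, fell from 70.7 to 12.2 and 13.2 CPM, a log2 change of -2.47 ± 0.22. CCNG2, an atypical cyclin, fell from 42.5 to 12.7 and 11.8 CPM, SESN1, a stress-induced inhibitor of mTORC1, from 54.2 to 18 and 18.1 CPM, and KLHL24 from 60.5 to 18.1 and 22.3 CPM. KLF9, FBXO32 and FOXO3 itself (134 CPM, then 77 and 71.8) completed the 7, and KLF9 passed 1 FPKM through 0 h alone. TXNIP, a widely used glucose-responsive gene of the same list, had no valid estimate at 0 h and was not fitted. In the PI3K and insulin list, PIK3R1 and RICTOR fell by -0.84 ± 0.178 and -0.87 ± 0.2 and SGK1 rose by 1.34 ± 0.208.

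Glucocorticoid response genes split, with 3 of 15 higher and 4 lower, although hydrocortisone was in the medium of both groups. TSC22D3, or GILZ, fell from 51.5 to 11.7 and 11.2 CPM, a log2 change of -2.17 ± 0.199, and ZBTB16 fell from 100.4 to 30.0 and 32.2 CPM. KLF9, counted also among FOXO targets and admitted through 0 h alone, and TFCP2L1 were the other 2. SGK1, ANGPTL4 and RHOB were higher, and 1 of these 3 calls was left with scaling by library total. Among the estrogen receptor targets, XBP1 rose and AREG fell, and 7 of 9 did not pass.

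Mitotic genes tended to be lower: 4 of 28 fell, 0 rose, 3 had a log2 change above 0 and the median was -0.47. CENPF, a kinetochore protein, went from 963 to 401 and 472 CPM, CENPE, a mitotic kinesin, from 185 to 79.4 and 86.2 CPM, TTK, the spindle checkpoint kinase, from 83.4 to 31.6 and 36.7 CPM, and HMMR from 74.2 to 27.4 and 38.4 CPM. DNA replication and S phase genes gave 0 calls of 26, with a median of 0.09 (-0.01 with scaling by library total). Cyclin D genes and CDK inhibitors gave 0 of 17, with CCND1 at 0.72 ± 0.192 and CDKN1A at 0.36 ± 0.183. Of 22 p53 targets, SESN1 was the 1 call, a fall (4.55%, against 2.18% of all coding rows). Called lower coding rows had a longer median length implied by the 0 h library (4.54 kb) than called higher rows (3.06 kb) or all coding rows (2.9 kb). The part of transcript length in these calls was not tested.

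The strongest falls of single coding genes included SCNN1G, a subunit of the epithelial sodium channel, from 44.8 to 6.69 and 7.89 CPM (-2.62 ± 0.197). LRRN3, a leucine-rich membrane protein, fell from 7.69 to 1.66 and 0.594 CPM, ST8SIA4, a sialyltransferase, from 6.88 to 0.623 and 1.53 CPM, and VAV3, an exchange factor for small GTPases, from 14 to 2.91 and 2.46 CPM. ZC3H6, a zinc finger gene, fell from 51.8 to 12.6 and 12.3 CPM. LIPE, hormone-sensitive lipase, and IL12RB2, a chain of the IL-12 receptor, fell by -2.05 ± 0.378 and -2.09 ± 0.474, and IFNE, an interferon of epithelia, by -2.02 ± 0.417. The row named NPIPL3 belongs to a repeated gene family and its value is uncertain. LRRN3, LIPE, IL12RB2, IFNE and NPIPL3 passed 1 FPKM through 0 h alone, so the direction of their change in FPKM was set by the rule.

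Coding and lincRNA rows were called in different proportions. Among coding genes, 3.57% were higher and 2.18% lower. Among lincRNA rows, 1.86% were higher and 6.06% lower (65 and 212 of 3500), and among the 225 rows with no symbol 3.11% were higher and 4.89% lower. The share of fragments in lincRNA rows was 18.5% at 0 h and 16.65% and 15.27% at 4 h, which is a measure of the whole library and moves in the same direction as the calls. Of the 65 that rose, 48 had a name ending in -AS, formed from the symbol of a coding gene, and for 37 of these the coding gene was itself measured: 28 of the 37 were called higher and 0 lower. The strand setting of the counting is not given in the sources used here, so fragments of a gene and of its -AS row cannot be told apart. linc-STC1-AS (1.72 CPM, then 68.5 and 49.6), linc-FST-AS (2.52 CPM, then 47.6 and 52.1), linc-TNC-AS and linc-IL6-AS are of this kind. linc-SERPINB4-AS (0.368 CPM, then 41.8 and 62.1) rose too, but its coding gene was measured only in a merged row and is not among the 37.

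**Figure D3:**
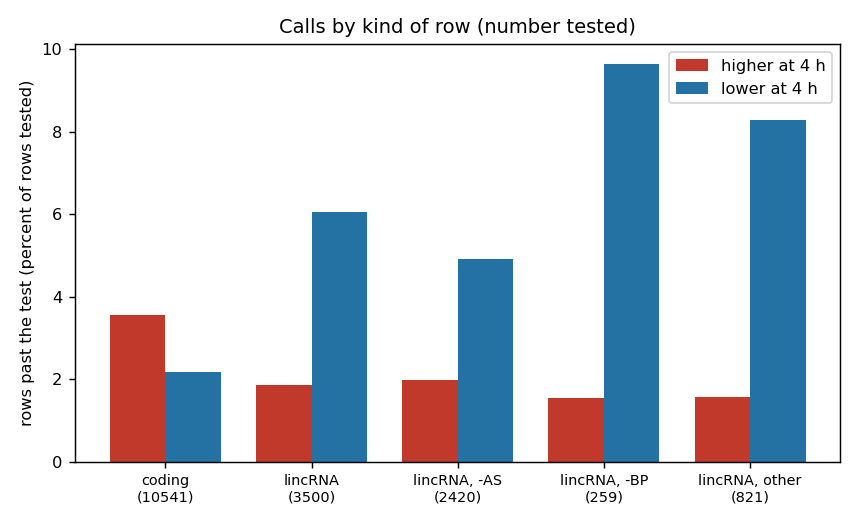
Percent of fitted rows that passed the test as higher (red) or lower (blue) at 4 h, for coding rows, all lincRNA rows and lincRNA rows by name ending, with the number of rows tested in parentheses. Coding rows have more rises than falls, and each class of lincRNA has more falls than rises, up to 9.65% lower among the 259 rows ending in -BP.

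Of the 119 -AS rows that fell, 97 had a measured coding partner, of which 14 were lower and 1 higher. Most of these partners were thus not called, while lower ones were more frequent than the 2.18% over all coding rows. linc-FAM84B-2 went from 12.2 CPM to 0.674 and 0.849 CPM, a log2 fall of -3.99 ± 0.348. linc-POU3F4 was at 119 CPM at 0 h and at 15.8 and 8.78 CPM at 4 h. linc-PDE3A-AS fell from 723 CPM to an uneven 39.8 and 117 CPM, and linc-RGPD3-2 from 86 fragments to 1 and 3. Called lower lincRNA rows were longer (median 12.5 kb) than all lincRNA rows (5.47 kb). Several lincRNA rows with very high counts differed strongly between the 4 h libraries and were not called, for example linc-DHX37-12 with 6148 CPM at 0 h and 473 and 2438 CPM at 4 h.

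Several strong rises lay outside these groups. OLR1, a receptor for oxidised lipoprotein, had 3 fragments at 0 h and 84 and 137 at 4 h, a ratio of 98.2 with an exact 95% counting interval of 33.2 to 480. TRIM40, a ubiquitin ligase, had 0 fragments at 0 h and 36 and 84 at 4 h, at least 53.3-fold higher against a floor of 3 fragments over the group. HS3ST1, a heparan sulfate sulfotransferase, rose from 0.245 to 3.84 and 4.41 CPM, IGFL1, an insulin-like growth factor relative, from 0.648 to 9.6 and 8.4 CPM, and CD180, a Toll-like receptor relative, from 0.263 to 4.41 and 3.9 CPM. Both 4 h libraries exceeded the 0 h library in each of these genes.

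Single calls came from lists that otherwise did not pass: CSF1 of 8 colony-stimulating and TNF ligands (10.4 CPM, then 22.5 and 19.4) and BIK of 12 BCL2 family genes (3.85 CPM, then 8.46 and 9.38). XBP1 and HERPUD1, of the unfolded protein response, were the 2 calls of 19 and rose by 1.10 ± 0.212 and 1.08 ± 0.221. The calls of CSF1, BIK, HERPUD1 and PTGS2 were lost with scaling by library total, and those of CSF1, CDH1, BMP2 and PTGS2 also when either 36 h library was left out of the fit. DESeq2's Wald test did not call IL12RB2, IFNE or DUSP10.

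The later libraries of the same series show which early changes were held. Tests against 12 h and 36 h share libraries with the comparison above, so their values are set side by side for single genes only. Of the 14737 genes, 2.42% were higher and 1.26% lower at 12 h than at 0 h, and 8.46% and 9.84% at 36 h than at 0 h. Against 4 h, 2.15% were higher and 1.72% lower at 12 h, and 17.0% and 21.6% at 36 h. These shares do not compare the size of the response. There was 1 library at 0 h and at 12 h but 2 at 4 h and at 36 h, and the genes were selected at 0 h and 4 h only. IL24 stood at 491 CPM at 12 h and at 229 and 233 CPM at 36 h, SOCS3 at 458 CPM and then 426 and 396 CPM, and TNC at 639.9 CPM and then 1607 and 1107 CPM. ADAMTS4 went on to 344 CPM at 12 h and 421 and 302 CPM at 36 h, a log2 change of 4.13 ± 0.218 from 4 h to 36 h (adjusted p = 1.71e-05). Others came down again. LIF was at 25.4 CPM at 12 h and at 2.03 and 1.9 CPM at 36 h, below its 0 h level (-1.69 ± 0.26 from 0 h to 36 h). CLDN1 dropped to 31.5 CPM at 12 h and 10.2 and 12.3 CPM at 36 h, also below 0 h (-2.68 ± 0.191). THBS1 returned to 323 CPM at 12 h and 690.2 and 620.2 CPM at 36 h. CXCL10 was at 0.283 CPM at 12 h and at 0 in both 36 h libraries.

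Some genes that had fallen at 4 h turned the other way. KLF9 was at 35.6 CPM at 12 h and 93.7 and 107 CPM at 36 h, against 10.9 CPM at 0 h (3.20 ± 0.242, adjusted p = 0.000129). CCNG2 reached 242 and 275 CPM at 36 h and RHOU 83.2 and 101 CPM, both above 0 h (2.61 ± 0.214 and 3.93 ± 0.265). PDK4 stayed below 0 h at 36 h, with 23.5 and 29.8 CPM (-1.41 ± 0.219). EGR1 was at 31.9 CPM at 12 h and 40.2 and 46.7 CPM at 36 h, which did not differ from 0 h by the test (-0.51 ± 0.3, adjusted p = 0.275).

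**Figure D4:**
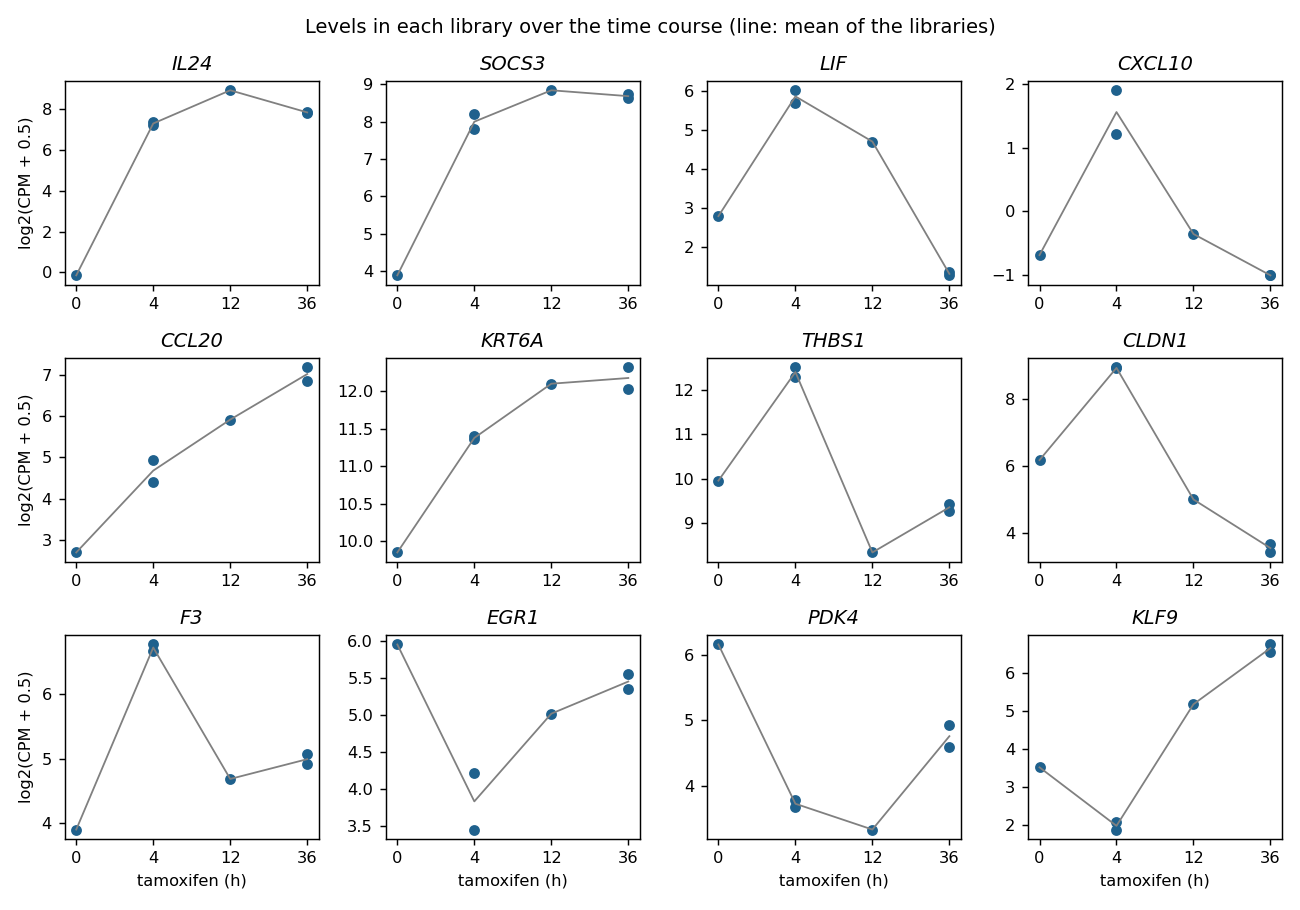
Levels of 12 genes as log2 of CPM with 0.5 added (y axis) at 0, 4, 12 and 36 h of tamoxifen (x axis, not to scale), 1 dot per library and a line through the means. IL24, SOCS3, CCL20 and KRT6A stay high after 4 h, LIF, CXCL10, THBS1, CLDN1 and F3 come down again, and EGR1, PDK4 and KLF9 are lowest at 4 h or 12 h.

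No member of several lists passed the test at 4 h: 19 Src family kinases and substrates (LYN was nearest, at 0.97 ± 0.271), 5 metallothioneins, 21 genes of the ATF4 amino acid response and 15 heat shock proteins. With 6.26% of all fitted genes called, a list this small can hold no call at the common share. Across the 60 lists, 48 had at least 1 called gene. The lists overlap, that of genes deleted in MCF10A had no measured member, and at that share a list can hold a call. The count is therefore no result about the lists. The authors' deposited table of their own tests called 919 of 14706 tested rows higher and 485 lower at 4 h. It shared 653 calls with edgeR, 70.7% of edgeR's and 46.2% of the authors', and 650 of these had the same direction in the authors' deposited table. With another unit and model, limma on log2(FPKM + 1), the calls were 95 higher and 85 lower genes, with SOCS3, IL24, LIF, CCL2, THBS1, CLDN1 and PDK4 among them and IL6, TNFAIP6, KRT6A and EGR1 not.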

How the data were processed

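Polyadenylated RNA of 6 time-course libraries was used (0 h and 12 h with 1 library each, 4 h and 36 h with 2 each). Per the submitters' processing notes, reads were processed with CASAVA 1.4, TopHat and Cuffdiff on hg19, and other versions, the gene annotation and the strand setting are not given in the sources used here. The authors deposited expected counts of fragments (estimated counts from Cuffdiff) and FPKM per row and library, per the file headers. They also deposited p-values and q-values of their own tests, per the file headers, and a test statistic, a score whose sign gave the direction of their calls.

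For the count model each value was made an integer, which moved few of them, since between 99.57% and 99.94% lay within 0.01 of one. They were fitted with edgeR 4.0.16 (TMM scaling, quasi-likelihood test, 1 coefficient per time point) in R 4.3.3. Rows with an FPKM of 1 or more in any of the 6 libraries entered the fit, 15572 in all, and p-values were adjusted over them by the Benjamini-Hochberg method. A gene was called at an adjusted p under 0.05, and ± is the standard error of the log2 change. CPM was computed from these counts after TMM scaling. Counting intervals are exact and cover counting error only. The fit had 2 residual degrees of freedom. Alternatives were other scalings, DESeq2 1.42.0, limma 3.58.1 on log2(FPKM + 1) and log2(FPKM + 0.1), other filters, other libraries in the fit and leaving out each replicate.

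Genes were named by a rule: the 15 largest rises and falls among called coding rows with more than 3 fragments in each group, the 6 largest of lincRNA rows, called rows with 3 or fewer fragments, the lowest p-values of each list (at most 5 genes, or 2 where a list had no call), SRC, STAT3, ESR1 and the LINC00520 row, and the rows in which the 4 h libraries differed most. Other list members, merged rows and the promoters shown were chosen after their values were seen. The members and the 60 gene lists were chosen with earlier results of these data known. Promoter sequences come from the RefSeq table of GRCh38.p14, in which 8616 of 10505 coding symbols were found, while coordinates of rows are hg19. Some genes that met the rule are not reported here.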

Additional observations from a re-analysis of the deposited data

How the results depend on the processing

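The number of calls moved with the test, unit and scaling. DESeq2's Wald test with its own size factors called 704 genes higher and 534 lower, against 556 and 508 with those size factors in the edgeR fit, and limma called 95 higher and 85 lower on log2(FPKM + 1) and 78 and 80 on log2(FPKM + 0.1), keeping 12.0% and 9.5% of the calls. In each of the limma fits, 6 of edgeR's calls had the opposite sign of change. With no FPKM filter 1234 rows were higher and 1560 lower, of 28470 rows tested. Leaving out 1 replicate at a time gave 481 to 1861 higher and 560 to 2287 lower calls. The extremes came without library 1 at 4 h (1861 and 2287), and 1012 and 873 were called without library 2, where the spread comes from the 36 h pair and the lone 4 h library is assumed to vary like it. HIST1H4L, which was not called, changed from 1.05 to -0.07 without 4 h library 2 and to 1.67, past the threshold, without library 1. Scaling by library total alone moved the median of all genes from 0.02 to -0.08, kept 79.1% of the calls and gave 315 higher and 444 lower, so calls in small lists near the threshold are the least secure. The cause of these differences was not tested. No paired analysis was possible because the 0 h group has 1 library, whose label carries no replicate number, so 0 h and 4 h share fewer than 2 numbers.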
